A study of Mus musculus with 12 samples.

Results

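The Hox cluster genes were taken by name alone, as every protein-coding gene whose symbol is Hox, a cluster letter from a to d and a number. There were 39 such symbols under 40 gene identifiers, of 21981 protein-coding genes in all, and their 63 transcripts were among 57109. Of the 40 genes, 11 lie in the Hoxa cluster, 10 in Hoxb, 9 in Hoxc and 10 in Hoxd, where the symbol Hoxd4 stands for 2 identifiers. Expression was measured by total RNA sequencing after removal of ribosomal RNA, in mice, for a study of long-lasting inflammatory jaw joint pain. The tissues were the trigeminal ganglia (TG), which hold the sensory neurons of the face, and the caudal spinal trigeminal nucleus (Sp5C) of the lower brainstem, to which pain and temperature fibres of the face project. The titles gave 4 groups of 3 numbered libraries each, STG and CTG from the ganglia and SSp5C and CSp5C from the nucleus. All animals were wild type C57BL/6 mice of 8 weeks, and no treatment, dose or time is given for any group. The letters S and C are not explained in the labels, so they are used as they stand and differences are given as C minus S. It is not stated whether 1 group's libraries were made from separate animals. If they were not, the spread behind each p-value is that of the samples only and may be technical.

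Hox genes encode homeodomain transcription factors that give cells of the embryo their position along the head to tail axis. They sit in 4 clusters in which the order of the genes follows the order of the body regions that express them, so that low numbers are used from the hindbrain on and high numbers towards the tail. Genes of different clusters with the same number are called paralogs and descend from a common ancestor gene. Neurons of the hindbrain and spinal cord keep expressing Hox genes into adult life, whereas the trigeminal ganglion forms from placode and neural crest cells largely in front of the Hox territory of the hindbrain.

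The labelled tissues were checked against marker genes. Summed over 8 genes of sensory ganglion neurons, the level was 863 to 972 FPKM in TG and 11.3 to 40.8 in Sp5C, where FPKM is a fragment number scaled to the length of the transcript and the size of the library. The summed level of 11 genes of dorsal horn and nucleus caudalis neurons was 424 to 505 FPKM in Sp5C and 166 to 207 in TG. In the limma contrast described below, 9 of the 11 were higher in Sp5C (35% of all genes) and 1 was higher in TG (36.2%). Libraries of one tissue correlated at 0.967 or more over protein-coding genes, and those of different tissues at 0.765 to 0.803. The 6 pituitary genes summed to 2853 FPKM in STG replicate 1 and to 2.57 to 51.5 in the other TG libraries, and their part in the Hox values was not tested. Among the Hox genes 1 library stood apart. CSp5C replicate 1 had far less Hoxb6, Hoxb7, Hoxb8 and Hoxa6 than the other 5 Sp5C libraries. Means, SDs and shares in Sp5C include this library, while the C minus S differences in Sp5C are given with and without it. The FPKM tables hold no fragment numbers, so the depth of the libraries is unknown and no counting error can be given.

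The Sp5C libraries contained RNA of genes of low paralog number from all 4 clusters and of middle number from Hoxa and Hoxb. Of 40 members, 16 had a mean of at least 1 FPKM in Sp5C, 12 of the 16 genes of paralog groups 1 to 5, 4 of the 8 genes of groups 6 to 8, and 0 of the 16 genes of groups 9 to 13. Summed over all members, the 3 SSp5C libraries stood at 165, 183 and 171 FPKM and the 3 CSp5C libraries at 124, 188 and 136. The same sum was 16.4, 12.6 and 13.5 in STG and 10.8, 12.8 and 18.6 in CTG, below every Sp5C library. FPKM is scaled to transcript length, so levels of different genes are set side by side here. Other differences in how genes are measured were not examined, so shares and rankings between genes are approximate. Hoxb gave 45.8% of the Sp5C sum, Hoxa 32.5%, Hoxc 11% and Hoxd 10.7%. By number, paralog group 5 gave 40.4%, group 4 24.0%, group 3 15.9%, group 6 8.54% and group 2 7.44%. In these bulk libraries fewer cells of a type and less RNA per cell cannot be told apart.

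**Figure D1:**
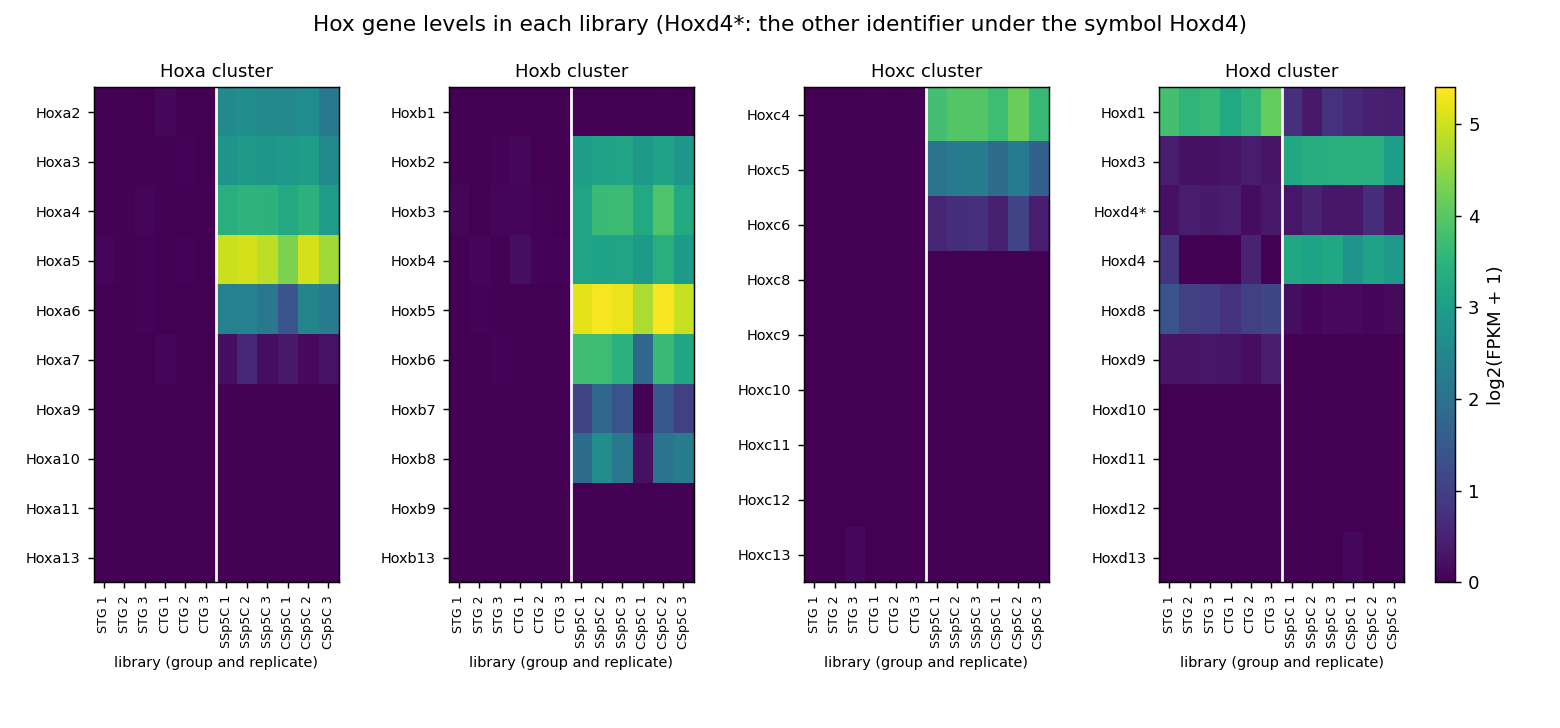
Level of 39 of the 40 Hox genes (rows, by cluster and paralog number) in each of the 12 libraries (columns), as log2(FPKM + 1). The 6 Sp5C libraries, right of the white line, have their brightest rows among groups 2 to 6, while the 6 TG libraries are dark except for Hoxd1, Hoxd8 and a few low Hoxd rows.

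The paralogs of group 5, which in the embryo are used from the lower hindbrain and neck on, were the highest. Hoxb5 stood at 35.2, 39.0 and 36.6 FPKM in SSp5C and at 25.7, 39.7 and 29.4 in CSp5C. It ranked 1647 among all genes in Sp5C. Hoxa5 stood at 30.4, 32.3 and 28 FPKM in SSp5C and at 19.3, 32.2 and 23.7 in CSp5C. The level of Hoxb5 was above that of Hoxa5 in each of the 6 libraries, although the means of 34.3 ± 5.56 and 27.6 ± 5.19 FPKM (SD, n = 6) differed by little more than their spread over libraries. In TG, Hoxb5 was listed at 0 in 4 libraries and at 0.0396 and 0.0212 FPKM in STG replicates 2 and 3, and Hoxa5 reached at most 0.0479 FPKM. Hoxc5, the third gene of the group, was lower at 2.14 to 3.89 FPKM in Sp5C and was listed at 0 in all TG libraries.

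Group 4 followed, with genes of all 4 clusters. Hoxc4 stood at 12.9, 14.5 and 14.5 FPKM in SSp5C and at 12.3, 17.3 and 11.7 in CSp5C. Its mean of 13.9 ± 2.05 FPKM lay above those of Hoxa4 (9.26 ± 1.38), Hoxb4 (7.74 ± 1.05) and the main Hoxd4 identifier (7.43 ± 1.0). Its lowest library, at 11.7 FPKM, was above the highest of Hoxa4 (10.3), Hoxb4 (9.57) and Hoxd4 (8.42), whose ranges overlapped one another. Between Hoxc4 and Hoxd4 in level came Hoxb3 (10.5 ± 2.45 FPKM), Hoxb6 (9.53 ± 3.79) and Hoxd3 (8.89 ± 1.02). Of the 16 members at 1 FPKM or more, neighbours in the order of mean levels overlapped in their range over the 6 libraries, except that Hoxa5 lay above Hoxc4 in every library. In TG, Hoxd4 stood at 0.763 FPKM in STG replicate 1 and 0.439 in CTG replicate 2 and was listed at 0 in the other 4, while Hoxa4, Hoxb4 and Hoxc4 reached at most 0.156 FPKM. The other Hoxd4 identifier was above 0 in every library, at 0.129 to 0.336 FPKM in TG and 0.218 to 0.606 in Sp5C.

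Groups 2 and 3, which pattern segments of the embryonic hindbrain, were present from each cluster that holds them. Hoxb3 stood at 7.91, 11.9 and 12 FPKM in SSp5C and at 8.69, 14 and 8.66 in CSp5C, with the lowest library in SSp5C, the highest in CSp5C and overlapping groups. Hoxa3 ranged from 5.02 to 7.05 FPKM. Hoxb2, at 6.23 to 7.90 FPKM, and Hoxa2, at 3.54 to 5.41, were the members of group 2. Of group 1, which acts first in the embryonic hindbrain, Hoxd1 stood at 0.287 to 0.722 FPKM, and Hoxb1 was above 0 in 1 library, at 0.0175 FPKM.

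Of groups 6 to 8, which in the embryo belong to the neck and trunk, Hoxb6 was the highest member, and groups 9 to 13 were at or near 0. Hoxb6 stood at 12.5, 12.2 and 9.96 FPKM in SSp5C and at 2.53, 11.8 and 8.23 in CSp5C. Hoxa6 had a mean of 3.61 ± 1.01 FPKM, Hoxb8 of 3.11 ± 1.67 and Hoxb7 of 1.36 ± 0.841, while Hoxc6 (0.613 ± 0.303) and Hoxa7 (0.235 ± 0.147) were below 1. Hoxc8 was listed at 0 in every library. Of the 16 members of groups 9 to 13, Hoxd13 had the highest mean in Sp5C at 0.0267 FPKM, and 11 members in all, 10 of them from groups 9 to 13, were listed at 0 in all 12 libraries. The plot of levels by paralog number shows a peak at group 5 in the Hoxa and Hoxb clusters. The course in Hoxb was not steady, as the mean of Hoxb4 (7.74 FPKM) was below that of Hoxb3 (10.5) and that of Hoxb8 above that of Hoxb7.

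**Figure D2:**
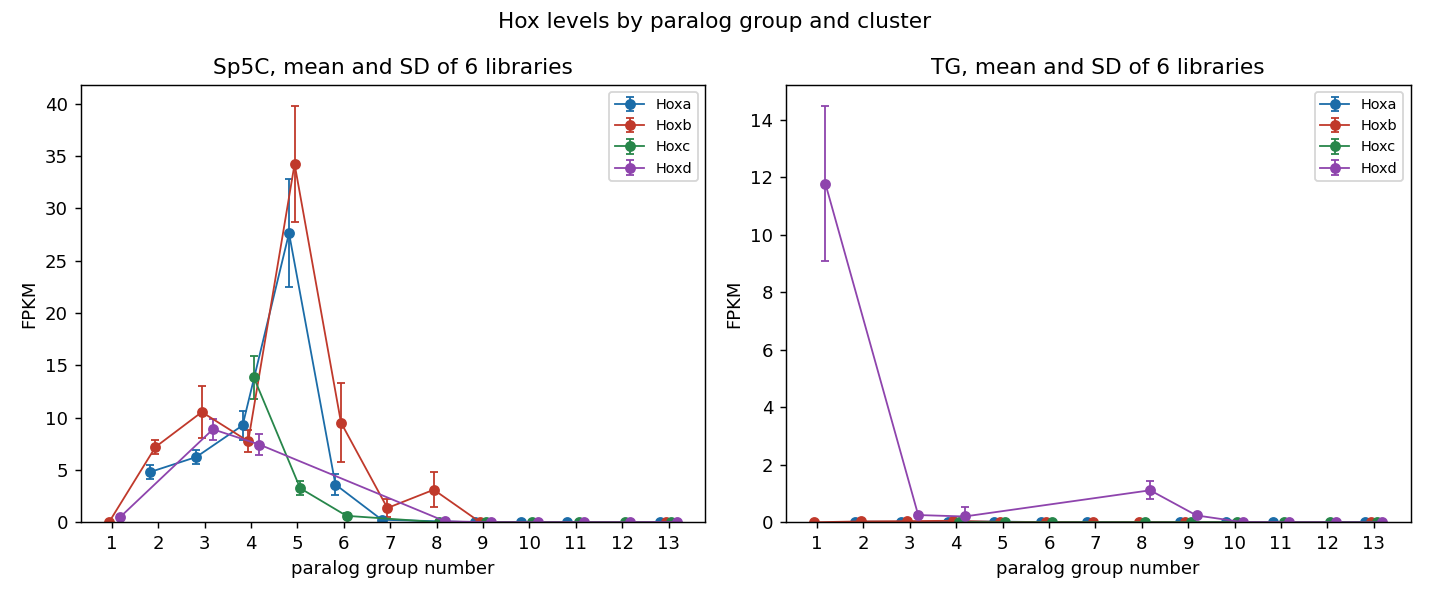
Mean FPKM and SD over the 6 libraries of a tissue, by paralog group number and cluster (colours), with a separate FPKM scale for each tissue. In Sp5C, Hoxb5 (34.3) and Hoxa5 (27.6) stand highest and groups 9 to 13 lie at or near 0. In TG, Hoxd1 (11.8) and Hoxd8 (1.11) stand out.

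The sequence before the start of 3 of these genes is shown, for the highest member with a promoter window (Hoxa5), a group 4 gene with a match to the core motif of retinoic acid receptors (Hoxb4) and a group 8 gene that was very low in 1 library (Hoxb8). Each window holds the 250 bases before the RefSeq start, in GRCm38.p6, at chr6:52204588-52204837 on the minus strand for Hoxa5, and on the plus strand at chr11:96318017-96318266 for Hoxb4 and chr11:96281655-96281904 for Hoxb8. Each start coincides with that of the transcript which carries all of the gene's FPKM in Sp5C. Capitals mark matches on either strand to 5 motifs, namely the TATA box in the form TATAAA, the CCAAT box, the joint Hox and Pbx site TGATNNAT, the homeodomain core in the form TAATTA, and the nuclear receptor core AGGTCA, which retinoic acid receptors also bind. Matches of these motifs may overlap.
Hoxa5: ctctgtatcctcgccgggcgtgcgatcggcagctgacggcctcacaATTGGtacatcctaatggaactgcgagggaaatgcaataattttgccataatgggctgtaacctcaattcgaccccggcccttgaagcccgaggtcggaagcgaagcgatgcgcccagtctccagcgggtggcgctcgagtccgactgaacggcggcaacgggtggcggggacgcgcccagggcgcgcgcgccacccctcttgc
Hoxb4: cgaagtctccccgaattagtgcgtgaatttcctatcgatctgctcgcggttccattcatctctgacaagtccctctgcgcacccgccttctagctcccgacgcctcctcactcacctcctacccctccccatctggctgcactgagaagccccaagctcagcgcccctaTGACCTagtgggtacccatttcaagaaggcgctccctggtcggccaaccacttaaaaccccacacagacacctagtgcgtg
Hoxb8: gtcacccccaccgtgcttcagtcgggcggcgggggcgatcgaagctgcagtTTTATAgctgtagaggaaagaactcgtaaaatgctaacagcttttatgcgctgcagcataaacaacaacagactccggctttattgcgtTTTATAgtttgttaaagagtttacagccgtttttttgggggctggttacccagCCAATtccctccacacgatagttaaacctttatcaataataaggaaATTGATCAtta
Of the 39 symbols, 22 had a RefSeq window, 24 windows in all. CCAAT was found in 14 of the 24 (58.3%), against 33.8% of 32536 windows of the same length before all genes. AGGTCA was in 6 (25.0% against 14%), TATAAA in 4 (16.7% against 12.3%), TGATNNAT in 4 (16.7% against 7.66%) and TAATTA in 2 (8.33% against 4.84%). G and C made up 63.6% of the Hoxa5 window, 58.0% of that of Hoxb4 and 44.4% of that of Hoxb8, against a median of 52.4%. A match describes letters in these windows and no binding was measured.

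TG contained a different and much smaller set, almost all of it from the Hoxd cluster. Hoxd gave 98.0% of the summed level of all members in TG, and 2 of 40 members had a mean of at least 1 FPKM. Hoxd1, a group 1 gene known in mouse for shaping the skin endings and central projections of pain-sensing neurons, stood at 13, 10.5 and 11.4 FPKM in STG and at 8.71, 10.5 and 16.5 in CTG. Each of these values lay above all Sp5C values, of which the highest was 0.722 FPKM. Hoxd8, at the middle of the cluster, stood at 1.65, 1.04 and 1.0 FPKM in STG and at 0.730, 1.04 and 1.20 in CTG, against 0.0554 to 0.148 in Sp5C. Hoxd9, next to it, ranged from 0.141 to 0.332 FPKM over the TG libraries and was listed at 0 in 5 of the 6 Sp5C libraries, with 0.0164 in CSp5C replicate 1. The Hoxa, Hoxb and Hoxc genes were low in TG, with sums over the cluster of at most 0.189 FPKM for Hoxa, 0.349 for Hoxb and 0.0817 for Hoxc.

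The Hoxd1 start lies beside that of a long non-coding RNA (lncRNA), Haglr, which is transcribed from the opposite strand. The window before Hoxd1, at chr2:74762730-74762979 on the plus strand of GRCm38.p6, is shown with the 83 bases between both starts in capitals.
Hoxd1: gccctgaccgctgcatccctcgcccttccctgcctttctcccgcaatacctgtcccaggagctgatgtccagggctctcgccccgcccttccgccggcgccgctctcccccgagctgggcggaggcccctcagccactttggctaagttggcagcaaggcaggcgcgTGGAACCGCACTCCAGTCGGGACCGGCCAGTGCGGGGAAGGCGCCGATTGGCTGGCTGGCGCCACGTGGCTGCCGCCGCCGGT
G and C made up 71.6% of this window, which holds 24 CG pairs against a median of 6 over all windows. Haglr stood at 3.01, 2.83 and 2.29 FPKM in STG and at 2.13, 2.79 and 3.44 in CTG, against 1.19, 0.807 and 1.16 in SSp5C and 0.637, 1.05 and 0.812 in CSp5C. CTG replicate 3 was the highest and CTG replicate 1 the lowest of the TG libraries for both Hoxd1 and Haglr. Within Sp5C, where Hoxd1 was under 1 FPKM, Haglr was the higher of the pair in each library, although both come from separate tables.

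Transcripts with different annotated starts took different shares of the Hoxd genes in TG and Sp5C. Positions are those of GENCODE M21 (GRCm38), matched by Ensembl identifier, on chromosome 2 and the plus strand. Of Hoxd3, the transcript that starts at 74711927, between Hoxd8 and Hoxd4, held 84.8% of the level in TG and 18.2% in Sp5C. Its own level was nevertheless higher in Sp5C, at 0.906 to 3.19 FPKM against 0.178 to 0.238 in TG. The one that starts at 74736515 held 62.8% in Sp5C (5.58 ± 1.71 FPKM) and was listed at 0 in all TG libraries. The 2 identifiers of Hoxd4 also have separate starts. The transcript that starts at 74727074 had a mean of 7.43 ± 1.0 FPKM in Sp5C and 0.200 ± 0.327 in TG, whereas the one that starts at 74721978 stood at 0.342 ± 0.147 and 0.264 ± 0.085. The Hoxd8 transcript that starts at 74705152 held 44.7% of Hoxd8 in TG and was listed at 0 in Sp5C. An antisense lncRNA over this stretch, Hoxd3os1, ranged from 0.124 to 0.484 FPKM in TG and was listed at 0 in all 6 Sp5C libraries. How reads were divided between overlapping transcripts of the cluster is not given in the sources used here, so these shares are uncertain, and they were not tested.

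**Figure D3:**
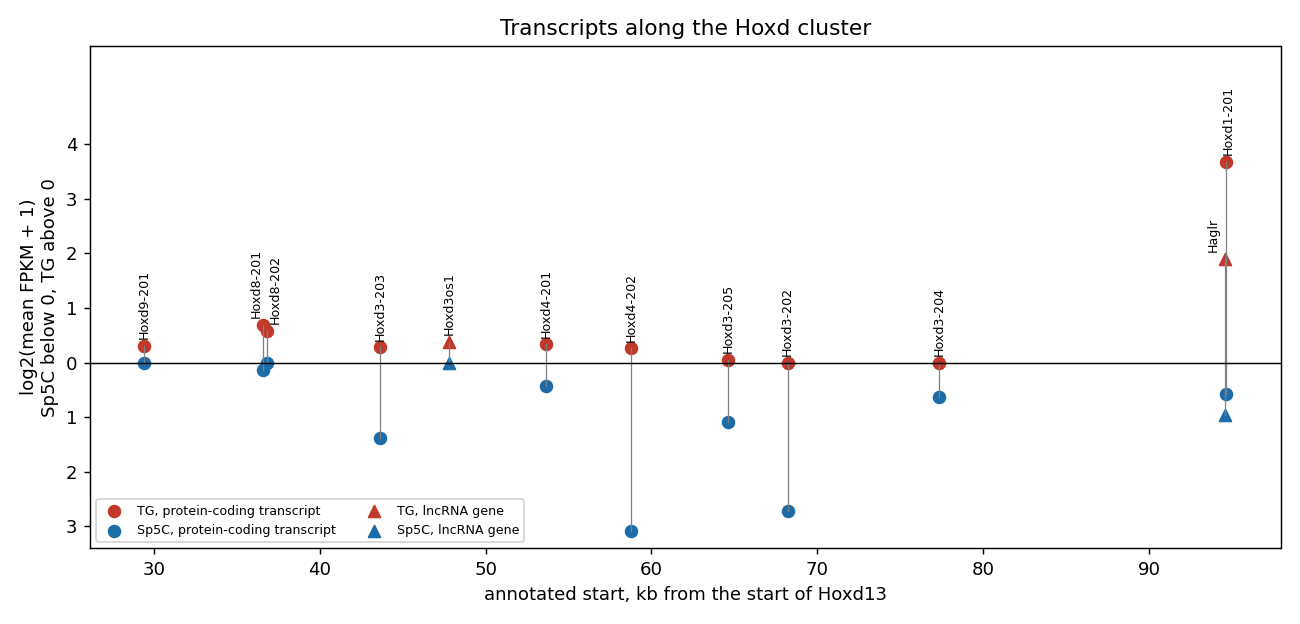
Mean level over the 6 libraries of a tissue, as log2(mean FPKM + 1), of each Hoxd transcript with a mean of at least 0.05 FPKM in a tissue and of the 2 annotated lncRNAs of the cluster, against the distance of its annotated start from that of Hoxd13. TG is drawn above 0 and Sp5C below, and the highest TG signal sits at Hoxd1 with Haglr. Lower TG signal sits at Hoxd9, Hoxd8, the Hoxd3 transcript that starts nearest to Hoxd13, Hoxd3os1 and both Hoxd4 identifiers.

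The contrast of TG with Sp5C was tested with limma on log2(FPKM + 1) over the 13081 genes with a mean of at least 1 FPKM over all 12 libraries, with Benjamini-Hochberg adjustment. Of the 40 members, 16 passed the filter, and 15 of these were higher in Sp5C, where 35% of all genes tested were higher. Hoxd1 was the 1 member higher in TG, where 36.2% of all genes were. Hoxb5 differed most, by −5.11 on the log2 scale (TG minus Sp5C, SE 0.0872, adjusted p = 1.79e-12), followed by Hoxa5 (−4.78), Hoxc4 (−3.87) and Hoxb3 (−3.45). The smallest difference towards Sp5C was that of Hoxb8, at −1.87 (SE 0.302, adjusted p = 0.000205), or −2.19 without CSp5C replicate 1. For Hoxd1 the difference was 3.08 (SE 0.136, adjusted p = 2.32e-09), higher in 6 of 6 TG libraries. The tissues did not overlap for any of the 16, against 53.7% of all genes. A difference of at least 1 on the log2 scale was found for all 15 and for Hoxd1, as it was for 9.04% of all genes towards Sp5C and 9.82% towards TG. The 15 genes passed the filter through their Sp5C values alone, and Hoxd1 through its TG values, with low levels in the other tissue. Their direction, a difference of at least 1 and the lack of overlap were thus largely set by the filter. The shares of all genes beside them are therefore no test of the members. Their count and their median also say nothing about the members that did not pass.

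Without the filter, 29 members had a value above 0, and 19 were higher in Sp5C (28.1% of 19072 genes), 3 higher in TG (30.6%) and 7 not called by limma. Among the members added on the Sp5C side were Hoxb7 (−1.14 on the log2 scale, adjusted p = 0.000812), Hoxc6 (−0.67, 0.000252) and Hoxa7 (−0.28, 0.00343). Those added on the TG side were Hoxd8 (0.94, 2.24e-06) and Hoxd9 (0.30, 1.18e-05). On this scale the pseudocount of 1 compresses the differences of genes at such low levels. The 3 members called higher in TG, Hoxd1, Hoxd8 and Hoxd9, thus all belonged to 1 cluster.

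Annotated lncRNAs inside the clusters, or within 10 kb of them, were measured in a separate table, which held 7 such genes of 2315. They were tested on log2(FPKM + 0.5) among 1431 lncRNAs with a mean of at least 0.5 FPKM, of which 26.1% were higher in Sp5C and 30.3% in TG. Hotairm1, made in the Hoxa cluster beside Hoxa2 and known for acting in the control of the Hoxa genes near it, stood at 3.46, 4.61 and 4.72 FPKM in SSp5C and at 4.20, 3.68 and 3.35 in CSp5C, against at most 0.225 in TG (log2 difference −2.84, adjusted p = 2.83e-11). Hoxb3os ranged from 0.997 to 1.55 FPKM in Sp5C and was at most 0.0487 in TG (−1.80, adjusted p = 4.93e-10). Hotairm1 and Hoxb3os passed the filter through their Sp5C values alone. Their direction was thus largely set by the filter, and the shares of all lncRNAs are no test of them. Haglr was higher in TG (1.17, adjusted p = 9.06e-07), as was the gene beside it, Hoxd1. The other 4 did not reach the mean of 0.5 FPKM. Of these, Hoxaas3, Hoxb5os and RP23-9G13.9 were above 0 in every Sp5C library, at 0.219 to 0.987 FPKM, and the last 2 were listed at 0 in every TG library. Whether the counting kept antisense RNA apart from the Hox genes it overlaps is not stated by the sources used here.

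The genes next to the clusters were examined in turn. Evx1 and Evx2, homeobox genes of spinal interneurons at the ends of Hoxa and Hoxd, ranged from 1.11 to 1.43 FPKM and from 0.368 to 1.05 FPKM in Sp5C. Evx2 was listed at 0 in all TG libraries and Evx1 reached 0.0118 FPKM. Neither passed the filter. The nearest genes on 1 side of Hoxb were low in both tissues, with Ttll6 at 0.256 to 1.63 FPKM in TG and 0.0394 to 0.166 in Sp5C, and Calcoco2 at 0.0711 to 0.331 and 0 to 0.158. Of 24 genes flanking the clusters, 19 passed the filter, 8 higher in Sp5C and 5 in TG, against 35% and 36.2% of all genes. Cbx5 beside Hoxc differed by −0.68 on the log2 scale (adjusted p = 7.98e-08), Skap2 beside Hoxa by −0.29 (0.00079), Snx11 beside Hoxb by 0.57 (2.74e-07), and Mtx2 and Lnpk on either side of Hoxd by −0.14 (0.0139) and 0.24 (0.00107). The largest difference among the 19 was that of Nfe2l2 near Hoxd, at 1.19 (adjusted p = 2.15e-07).

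Genes that work with or upstream of Hox genes were described from lists. The TALE homeodomain proteins (Pbx, Meis, Pknox and Tgif) bind DNA together with Hox proteins or compete for their sites. Of 11 in the list, 6 were higher in Sp5C and 4 in TG, where 35% and 36.2% of all genes were, with a median difference of −0.19 against 0.01 over all genes. Meis1 stood at 8.90 ± 2.35 FPKM in Sp5C and 1.56 ± 0.406 in TG (−1.92, adjusted p = 1.5e-06) and Pbx3 at 13 ± 0.956 against 5.06 ± 0.483 (−1.20, adjusted p = 1.07e-08). The repressors Tgif1 (1.53) and Tgif2 (1.13) were higher in TG. Meis2 was expressed in both tissues, with a difference of −0.39.

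Retinoic acid, made from vitamin A, switches on low-numbered Hox genes in the embryonic hindbrain. Of 18 genes of its pathway, 15 passed the filter, 4 were higher in Sp5C and 5 in TG, not above the 35% and 36.2% of all genes. The synthesising enzyme Aldh1a1 stood at 90.9 ± 7.05 FPKM in Sp5C and 7.51 ± 0.968 in TG (−3.44, adjusted p = 1.6e-11), and the degrading enzyme Cyp26b1 at 5.52 ± 1.12 against 1.37 ± 0.548 (−1.47, adjusted p = 1.38e-06). The receptor Rarg was higher in TG, at 15.6 ± 0.774 against 3.30 ± 0.463 FPKM (1.95, adjusted p = 1.29e-10), as were Rxrg (1.29) and the enzyme Aldh1a3 (1.83). Aldh1a2, the main enzyme of the embryonic trunk, varied from 1.28 FPKM upwards in Sp5C and did not pass (−0.24, adjusted p = 0.663).

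The Polycomb and Trithorax proteins, which keep Hox genes silent or active after the embryonic signals have gone, were expressed in both tissues. All 19 genes of the Polycomb list passed the filter. Of these, 7 were higher in Sp5C and 7 in TG, close to the 35% and 36.2% of all genes. Phc1 at −1.21 (adjusted p = 6.23e-08) and Cbx2 at 0.94 (2.69e-07) were the furthest apart. The list also held the demethylases Kdm6a and Kdm6b, which act against Polycomb silencing, so its counts mix both kinds. Of 10 genes in the Trithorax list, 1 was higher in each tissue, Psip1 in Sp5C (−0.45) and Mllt3 in TG (0.56). Psip1 and Mllt3, like Dot1l and Mllt10 in the same list, are not Trithorax proteins themselves. Among 10 embryonic regulators of Hox genes, 5 passed the filter, 3 higher in Sp5C and 2 in TG, against 35% and 36.2% of all genes. Gdf11 (−0.21, adjusted p = 0.00282) and Zfp503 (−0.29, 0.00635) were higher in Sp5C, and Egr2 (2.1, 0.000296) and Nr6a1 (0.23, 0.00401) in TG. Egr2 also serves in myelinating Schwann cells, whose 6 markers summed to 4337 to 5632 FPKM in TG and 41.6 to 66.3 in Sp5C. Its part in the difference was not tested.

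Homeobox genes outside the clusters that are used in front of the Hox territory gave a comparison for position. Of 19, 15 stayed under the filter and the 4 that passed were higher in Sp5C, where 35% of all genes were. They passed through their Sp5C values, so this count says nothing about the other 15. These were Irx2 (−2.60), Irx1 (−2.13), Gbx1 (−1.36) and Irx5 (−0.99), which are also known in the hindbrain or spinal cord. Their levels in Sp5C were lower than those of the main Hox genes, at 6.53 ± 1.23 FPKM for Irx2 and 2.94 ± 0.423 for Gbx1.

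The comparison of the letters asked whether Hox levels differed between C and S within a tissue. In TG, 2 members passed the filter and 0 were called by limma, with 1 of 12906 genes called in all (0.00775%). Hoxd1 differed by −0.01 on the log2 scale (95% interval −0.53 to 0.51, adjusted p = 0.996) and Hoxd8 by −0.16 (−0.55 to 0.22, adjusted p = 0.96). At an unadjusted p under 0.05 there were also 0 members, against 4.7% of all genes, and the 3 CTG values of each gene overlapped the 3 STG values, where 10.8% of all genes had groups that did not overlap. CTG held both the lowest and the highest Hoxd1 value.

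In Sp5C, 16 members passed the filter and 0 were called by limma, with 4 of 12690 genes called (0.0315%). The mean of each of the 16 was lower in CSp5C, with a median difference of −0.23 against 0.00 over all genes. The lowest differences were those of Hoxb6 (−0.74, 95% interval −1.90 to 0.42), Hoxb8 (−0.71, −2.10 to 0.68) and Hoxb7 (−0.60, −1.52 to 0.33), each at an adjusted p of 0.931. The highest were those of Hoxa3 (−0.02, −0.30 to 0.26) and Hoxb3 (−0.03, −0.58 to 0.51). At an unadjusted p under 0.05 there was 1 member (5.02% of all genes), Hoxd4, at 8.32, 7.71 and 8.42 FPKM in SSp5C and 5.89, 7.67 and 6.57 in CSp5C (−0.25, adjusted p = 0.931 by limma). Its groups did not overlap, as for 10.9% of all genes, and the gap between them was 7.67 to 7.71 FPKM. The same direction in all 16 genes rested on few libraries. CSp5C replicate 1 held the lowest value of 8 of the 16 members and CSp5C replicate 3 of 7, against 18.5% and 20% of all 12690 genes. CSp5C replicate 2 held the highest value of 6 members, for which no share over all genes was taken. Without CSp5C replicate 1, 12 members were lower and 4 higher and the median was −0.11. Without CSp5C replicate 3 these were 11, 5 and −0.10, and without CSp5C replicate 2 all 16 were lower with a median of −0.34.

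**Figure D4:**
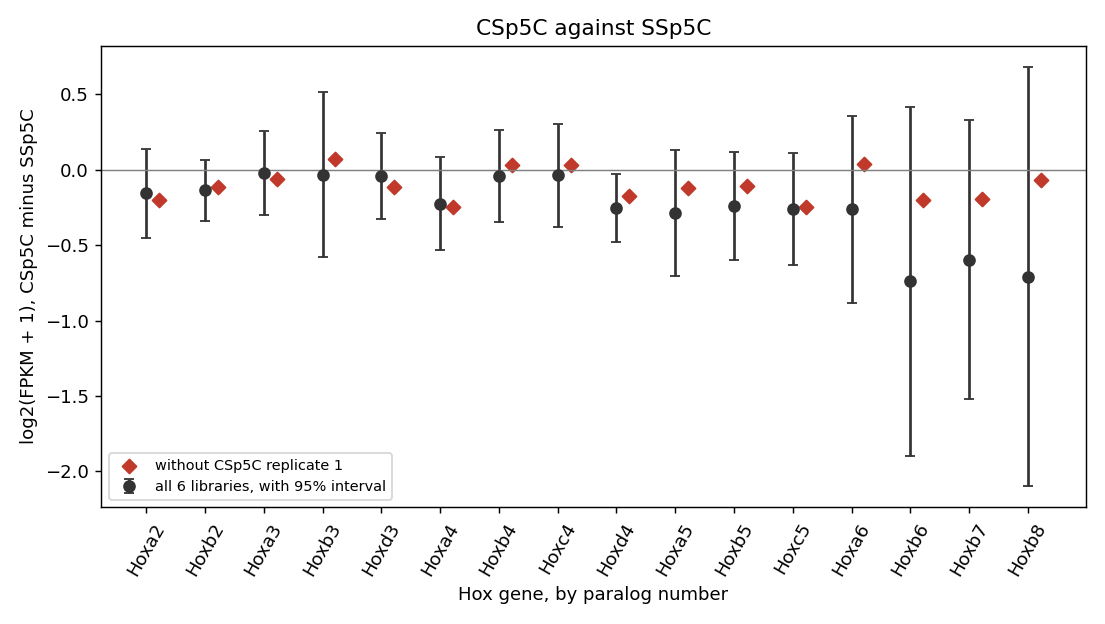
Difference of CSp5C minus SSp5C in log2(FPKM + 1) for the 16 Hox genes tested, ordered by paralog number, with 95% intervals (black) and the same difference without CSp5C replicate 1 (red). All intervals except that of Hoxd4 cross 0, and the differences of Hoxb6, Hoxb7 and Hoxb8 shrink from −0.74, −0.60 and −0.71 to −0.20, −0.19 and −0.07.

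The difference of the C minus S effect between the tissues was tested over all 12 libraries. None of the 16 members was called by limma (adjusted p of 0.92 to 0.994), and neither was any other of the 13081 genes. At an unadjusted p under 0.05 there were 708 genes (5.41%) and 0 members. Among the lncRNAs of the clusters, 5 were tested between the letters in Sp5C and 0 were called by limma, with 1 of 1402 called (0.0713%) and 0 of the 5 at an unadjusted p under 0.05 (10.3% of all lncRNAs). Their differences lay between −0.22 for Haglr and −0.04 for Hoxb3os. No gene of the lists of Hox cofactors, retinoic acid, Polycomb, Trithorax or other homeobox genes was called between the letters in either tissue.

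The 4 members of groups 6 to 8 with a mean of at least 1 FPKM in Sp5C were low in 1 library of CSp5C. In CSp5C replicate 1, Hoxb7 stood at 0.0272 FPKM, 1.65% of the median of the other 5 Sp5C libraries, and Hoxb8 at 0.184, or 5.31%. Hoxb6 stood at 21.4% and Hoxa6 at 41.0% of that median. Members of groups 6 to 8 with a mean under 1 FPKM did not all go this way, with Hoxc6 at 59.6%, Hoxd8 at 110% and Hoxa7 at 171%. The 12 members of groups 1 to 5 stood at 63.6% to 105% (median 85.1%), and over all genes tested the median was 99.9%. Groups 6 to 8 gave 4.20% of the summed level of groups 1 to 8 in this library and 11.4% to 13.9% in the other 5. Only 0.686% of the 12690 genes were below 50% of the median of the other 5 in this library, and 4 of the 16 members were. It was chosen for description after its values were seen, so this is no test. CSp5C replicate 3 was different, with 77.2% as the median of the 12 members of groups 1 to 5 and 78.5% of the 4 of groups 6 to 8.

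**Figure D5:**
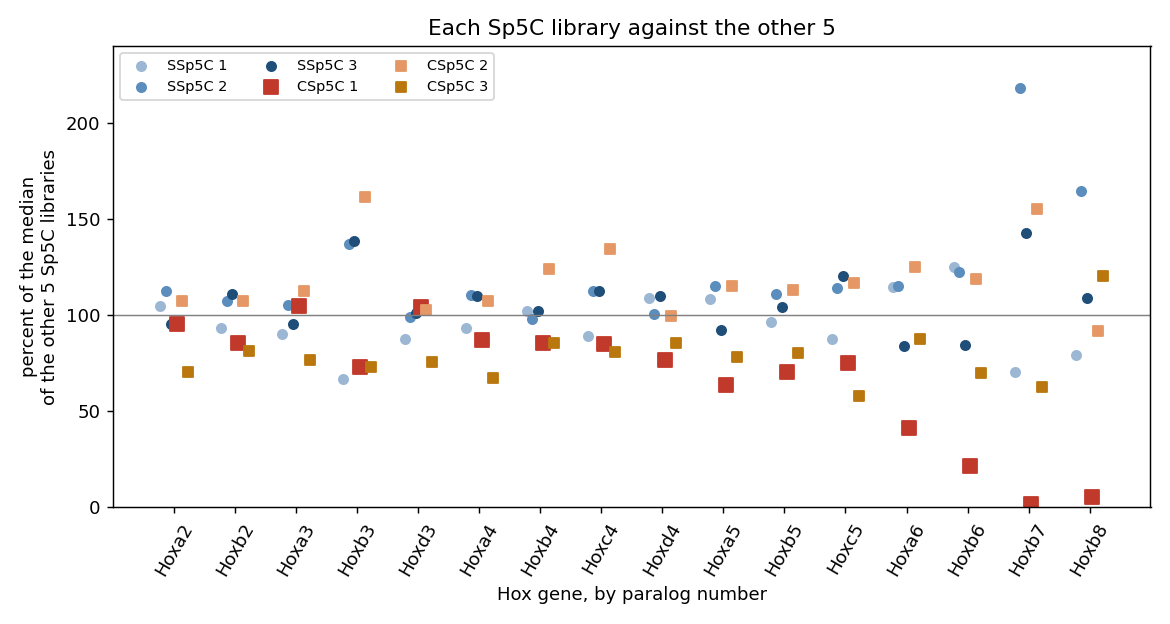
Level of the 16 Hox genes with a mean of at least 1 FPKM in Sp5C, in each Sp5C library as a percentage of the median of the other 5, ordered by paralog number. CSp5C replicate 1 (large red squares) falls to 41.0% or less at Hoxa6, Hoxb6, Hoxb7 and Hoxb8, while the lowest value of any other library is 58.1%.

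Marker lists also varied between the Sp5C libraries. In CSp5C replicate 1 the summed level of the 11 genes of dorsal horn and nucleus caudalis neurons was 424 FPKM, against 467 to 505 in the other 5. The 6 Schwann cell genes summed to 66.3 FPKM (41.6 to 62.5 in the others). The 6 choroid plexus genes summed to 24.0 FPKM (3.64 to 58.6 in the others), the 8 genes of meninges and fibroblasts to 1137 (341 to 1514), the 6 motor neuron genes to 56.1 (18.8 to 95.7), the 7 cerebellar genes to 19.5 (16.4 to 33.1) and the 4 oligodendrocyte genes to 2540 (1912 to 2959). CSp5C replicate 3 held the highest choroid plexus, motor neuron and cerebellar sums and the lowest oligodendrocyte sum. It also held the highest sensory ganglion sum in Sp5C, at 40.8 FPKM against 11.3 to 23.7 in the others. The motor neuron list shares Isl1 and Prph with the sensory ganglion list and summed to 394 to 452 FPKM in TG. The cerebellar list summed to 12.3 to 20.2 FPKM in TG, so neither sum marks its named cells alone. In the lists other than the nucleus caudalis neurons and the Schwann cells, CSp5C replicate 1 lay within the range of the other libraries. The part of these cells in the Hox differences was not tested.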

How the data were processed

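RNA was measured in 12 mouse libraries, 3 in each of 4 groups. Per the labels' protocols, ribosomal RNA was removed and libraries were made with a directional kit. The authors deposited FPKM values per transcript, for which the submitters' processing notes name HISAT2, StringTie 1.3.1 and Cuffdiff 2.1.1. The sources used here give no build, annotation or depth. Transcript values were summed per gene and log2 values taken with a pseudocount of 1 (lncRNA 0.5). Genes with a mean FPKM of at least 1 (lncRNA 0.5) over the libraries compared were tested with limma 3.58.1 (trend and robust moderation, R 4.3.3, with the data.table package, version 1.17.8), two-sided, adjusted over all genes, at a threshold of 0.05, after the code was tested on simulated data. Tables and figures were made with Python 3.11.15, pandas 2.3.3 and matplotlib 3.10.9. The members and lists were chosen with earlier results of these data known. Every member is counted, although some genes are not reported by name here. Those described in full were the 2 highest in Sp5C of each expressed paralog group, those with a TG mean of at least 0.5 FPKM and those with the highest and lowest C minus S differences. Positions come from GENCODE M21 (GRCm38) by identifier, because the deposited tables hold none, where the plan had assumed they did. Assembled lncRNA loci without a position were not used. Promoter sequences come from RefSeq (GRCm38.p6). Alternatives were pseudocounts, filters, scaling, moderation, transcript choice, a replicate block and leaving out each library.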

Additional observations from a re-analysis of the deposited data

Results flagged for a closer look

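Each Hox gene with a mean of at least 1 FPKM in a tissue, and each cluster lncRNA with a mean of at least 0.5, was examined for a library far from the other 5 of its tissue, 24 sets of 6 in all. Dixon's test at the 95% level, whose critical value is 0.625 for 6 samples, marks about 1 set in 20 by chance, and it marked 2. Hoxa6 was lowest in CSp5C replicate 1, at 1.70 FPKM against 3.48 to 4.53 in the other Sp5C libraries. Hoxa2 was lowest in CSp5C replicate 3, at 3.54 FPKM against 4.81 to 5.41. Hoxb6, Hoxb7 and Hoxb8 were not marked, as their other 5 values were themselves spread.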

How the results depend on the processing

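In the tissue contrast, 16 members were called, between 16 and 16 without each library in turn, 22 without a filter and 5 with a mean FPKM of at least 5, under which fewer members were tested. The 3 lncRNAs called (3 to 3 without each library) became 7 without a filter, all the cluster lncRNAs. The 16 members kept direction and call in each alternative that tested them. Calls made only without the filter, such as those of Hoxd8 and Hoxd9, were not followed through the other alternatives. Counts of C minus S and of the difference between tissues stayed at 0 (0 to 0 without each library) in every alternative run. Differences near 0 that were not called changed sign. In TG, Hoxd1 stood at 0.00301 with median-ratio scaling and between −0.25 and 0.17 without each library. In Sp5C, without each library, Hoxb3 ranged from −0.242 to 0.0752, Hoxa3 from −0.10 to 0.11, Hoxb4 from −0.196 to 0.0328, Hoxa6 from −0.477 to 0.0404, Hoxc4 from −0.202 to 0.0644, Hoxd3 from −0.112 to 0.0896, RP23-9G13.9 from −0.286 to 0.189 and Hoxb3os from −0.178 to 0.0478. The difference between tissues of Hoxb3 was −0.0245 with a pseudocount of 0.1 and between −0.0834 and 0.234 without each library, and that of Hoxa3 ranged from −0.0816 to 0.128. The cause was not tested. With the replicate number as a block, the counts were 16, 0, 0 and 0 for members and 3 and 0 for lncRNAs, as without it. The numbers did not pair the samples throughout. Same-numbered libraries correlated in their deviations at −0.15 to 0.19 between STG and CTG and −0.13 to 0.10 between SSp5C and CSp5C. Across tissues these values were −0.20 to −0.02 between STG and SSp5C and 0.23 to 0.38 between CTG and CSp5C. Differently numbered libraries correlated at −0.27 to 0.16, −0.23 to 0.19, −0.13 to 0.22 and −0.30 to −0.01, in the same order. Only between CTG and CSp5C did every same-numbered pair lie above every differently numbered one. Whether libraries of both tissues came from the same animals is not stated. Depth is unknown and 3 libraries a group limit what could be called, while members below the filter were not tested.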
